A study of Homo sapiens with 12 samples.

Results

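The MYC, MAX and MXD network was followed through 9 genes, MYC, MAX, MXD1, MXD3, MXD4, MXI1, MNT, MLX and MGA, taken by name from 43828 gene places in RNA-seq count tables. All 9 were listed in each of the 12 tables and passed the filter on low counts in exon and in intron reads. The libraries came from CCRF-CEM, a human T lymphoblast leukemia line, in 4 groups of 3. Parent cells were given camptothecin (100 nM, 4 h) or its DMSO vehicle, and so were SLFN11 knockout cells. The drug locks topoisomerase I in a complex with DNA. SLFN11 is a helicase-like protein that acts at stressed replication forks. Neither the way the knockout was made, nor a clone number, nor separate cultures for the replicates are in the labels. The p-values here therefore cover the spread among the libraries of a group, which may be technical.

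SLFN11 exon reads were still present in the libraries labelled knockout. On the CPM scale (reads scaled to a common library total) they came to 88.4, 91.7 and 89.4 with camptothecin in knockout cells against 118.7, 122.9 and 119.0 with camptothecin in parent cells, and to 88.7, 86.1 and 85.9 with DMSO in knockout cells against 117.3, 107.4 and 112.2 with DMSO in parent cells. All knockout libraries lay below all parent libraries, by a log2 change of -0.42 (adjusted p = 1.89e-05) with camptothecin and -0.37 (adjusted p = 0.000133) with DMSO. RNA reads do not show whether protein was made.

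The network is a set of basic helix-loop-helix leucine zipper proteins that share E-box sites on DNA. MYC pairs with MAX and activates growth genes, while the MXD proteins (MXD1, MXD3, MXD4 and MXI1), MNT and MGA pair with MAX at such sites and mostly repress, the MXD proteins through SIN3 and histone deacetylases. MLX is the MAX-like partner of the glucose-sensing factor MondoA (MLXIP). In T lymphoblast leukemia MYC is known as a target of NOTCH1, and MXD1 is known for its rise in cells that leave the cycle and differentiate.

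The promoters of MXD1, MNT and MXD3 are shown because these members moved most and in different ways. RefSeq windows on GRCh38.p14, from 250 bases before to 50 bases after a gene start, were matched for 8 of the 9 members. The motifs searched on both strands were the E-box CACGTG, which dimers of this network bind, the AP-1 motif TGANTCA and the CRE motif TGACGTCA. Capitals mark a match.
MXD1, chr2:69914859-69915158, + strand: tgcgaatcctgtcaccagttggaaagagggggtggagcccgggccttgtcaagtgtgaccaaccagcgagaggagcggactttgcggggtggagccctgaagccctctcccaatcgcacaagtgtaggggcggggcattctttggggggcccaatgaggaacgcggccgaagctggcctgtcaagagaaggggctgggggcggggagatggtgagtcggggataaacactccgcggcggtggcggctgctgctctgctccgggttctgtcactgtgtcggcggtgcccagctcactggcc
MNT, chr17:2401011-2401310, - strand: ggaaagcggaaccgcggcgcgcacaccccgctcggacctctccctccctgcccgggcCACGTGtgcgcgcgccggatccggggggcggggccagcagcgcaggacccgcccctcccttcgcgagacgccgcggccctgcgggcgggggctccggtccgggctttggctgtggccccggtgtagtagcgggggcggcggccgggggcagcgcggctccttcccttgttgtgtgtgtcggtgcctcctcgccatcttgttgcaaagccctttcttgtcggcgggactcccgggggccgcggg
MXD3, chr5:177312703-177313002, - strand: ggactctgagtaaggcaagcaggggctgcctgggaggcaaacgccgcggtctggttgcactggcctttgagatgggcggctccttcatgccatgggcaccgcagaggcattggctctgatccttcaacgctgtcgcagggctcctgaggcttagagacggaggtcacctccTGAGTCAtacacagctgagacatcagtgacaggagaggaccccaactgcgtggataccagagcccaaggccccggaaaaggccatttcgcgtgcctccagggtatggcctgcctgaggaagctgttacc
The MNT window held an E-box 193 bases before the start, and so did the windows of MLX (50 bases before) and MXD4 (238 bases before). Of 35116 such windows over all genes, 7.26% held this E-box. The MXD3 window held an AP-1 motif 79 bases before the start, as did 7.71% of all windows. None of these motifs was found in the window of MXD1 or in those of MAX, MXI1 and MGA, and 1.85% of all windows held the CRE motif. A match describes letters and is no bound site.

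Exon reads ran from 42439957 to 63606344 in 11 libraries and reached 135592046 in parent DMSO replicate 1. That library also stood apart in composition, with a chi-square per degree of freedom over genes of 193 and 153 against its own group, where the other pairs of replicates gave 4.98 to 18.8. Many results that rest on it are given with and without it. For some genes outside the network, such as CDKN1A, SLC3A2 and HDAC1, only values with it are given. All 12 T lymphoblast markers were read, with summed levels of 1120 to 1150 CPM in camptothecin and 1500 to 1690 CPM in DMSO libraries of parent cells, and 1460 to 1570 CPM in camptothecin and 1830 to 1840 CPM in DMSO libraries of knockout cells. Of these 12, 10 were called lower with camptothecin in parent cells and 6 in knockout cells, by the test described below. Of all genes, 17.1% were called lower in parent and 9.28% in knockout cells. Myeloid markers summed to 0.819 to 1.5 CPM, erythroid markers to 0.0646 to 1.09 CPM and B-lineage markers to 26.2 to 45.5 CPM. Epithelial and fibroblast markers summed to 7.94 to 9.34 CPM in knockout and 1.94 to 3.21 CPM in parent libraries. The part of these markers in the results was not tested. In such bulk RNA, fewer cells that express a gene and less RNA per cell cannot be told apart.

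Every adjusted p comes from edgeR's quasi-likelihood test over all genes with Benjamini-Hochberg adjustment, and a call needs a value under 0.05. TMM scaling set the median change of all genes near 0. With library size alone, the median gene shifted by 0.14 in the parent response, 0.17 in the knockout response, 0.05 in their difference, 0.08 between untreated and 0.12 between treated genotypes (log2). The share of exon calls that were higher was then 67.2% in the parent and 78.6% in the knockout response, 46.3% in their difference, 72.7% between untreated and 69.3% between treated genotypes, where TMM gave 49.6%, 44.0%, 29.2%, 52.6% and 47.9% in that order. Changes below are relative to the typical gene.

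With camptothecin, MXD1, MNT and MYC rose in parent cells and MXD3 and MAX fell, so 5 of the 9 members passed. Of all 23546 genes tested in exon reads, 33.9% passed in this comparison, 16.8% higher and 17.1% lower. In knockout cells MNT and MXI1 rose and MXD3 fell, against 16.6% of all genes, 7.30% higher and 9.28% lower. The responses differed for MXD1 alone, against 6.32% of all genes, 1.84% with a higher and 4.47% with a lower response in knockout cells. The median log2 change of the 9 members was 0.06 in parent cells and 0.01 in knockout cells, beside 0.01 and 0.02 over all genes. Such counts of 9 genes describe the network and set it apart from nothing.

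**Figure D1:**
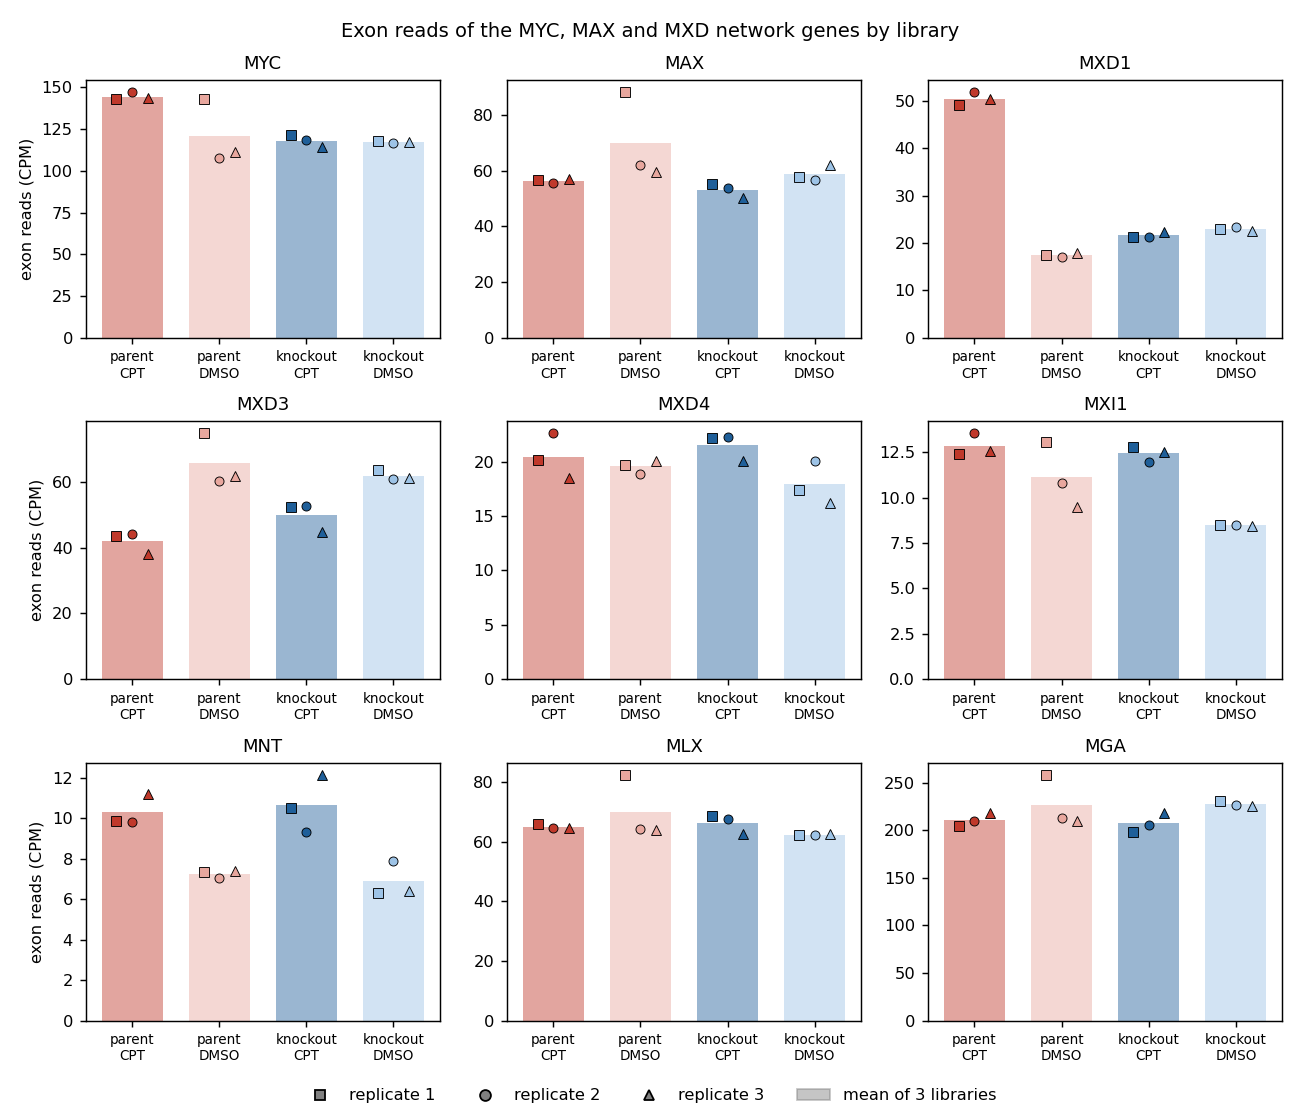
Exon reads (CPM, linear axis from 0) of the 9 network genes in the 12 libraries, with symbols for the 3 replicates and bars for their mean. MXD1 stands at 49.3 to 51.9 CPM in parent camptothecin libraries, 17.01 to 18.01 CPM in parent DMSO libraries and 21.3 to 23.5 CPM in knockout libraries.

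Per kilobase of exon that no other gene overlaps, MYC was the most abundant member in every group. It had 61.8 ± 1.09 CPM per kb with camptothecin and 51.3 ± 7.39 with DMSO in parent cells, and 50.7 ± 1.47 with camptothecin and 49.9 ± 0.219 with DMSO in knockout cells (mean ± SD, n = 3 each). MAX, MGA and MLX followed at 16.9 to 25.4 CPM per kb. Their library values overlapped in parent DMSO and knockout camptothecin cells, so no order holds among them there. MXD3 had 4.90 to 13.0 CPM per kb, and MNT was the least abundant member in every group at 1.59 to 2.498 CPM per kb. MXD1 was the member that changed place: with camptothecin in parent cells it had 9.89 ± 0.258 CPM per kb, above MXD3, and with DMSO it had 2.83 ± 0.165 CPM per kb, below MXD3 and with values that overlapped those of MXI1. MXD4 and MXI1 stood at 2.45 to 3.97 CPM per kb and overlapped with each other or with MXD1 in every group except knockout DMSO, where all neighbours were separate.

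**Figure D2:**
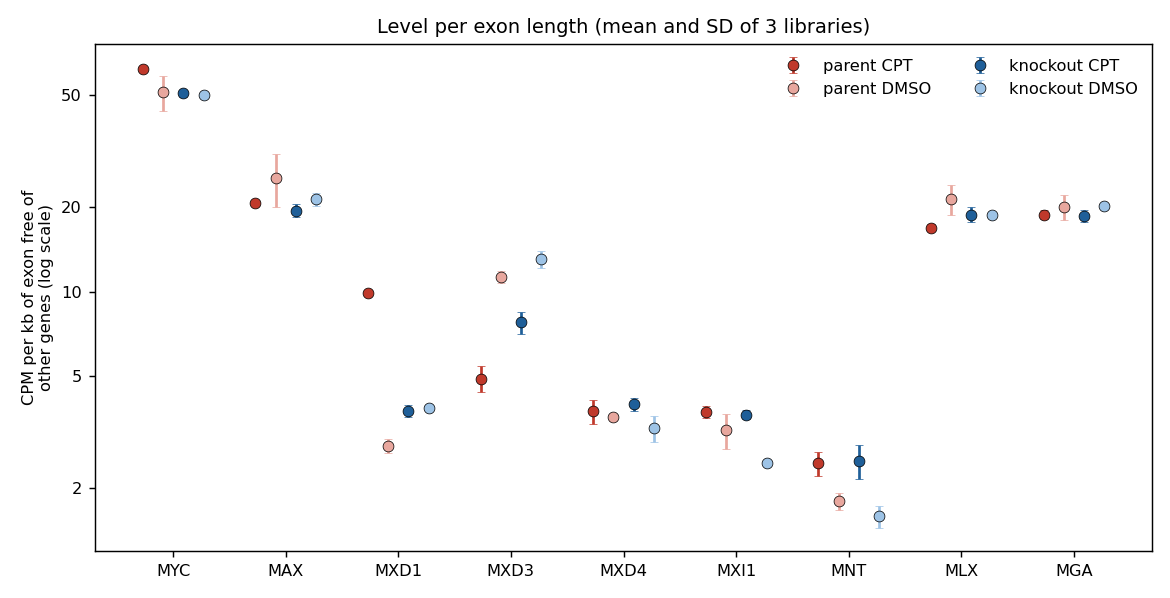
Level of each member per kilobase of exon free of other genes (CPM per kb, log axis), as mean and SD of 3 libraries in each of the 4 groups. MYC is highest throughout, and MXD1 is higher in the parent camptothecin group than in the other 3 groups.

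MXD1, the MXD repressor tied to cell cycle exit, rose 2.88-fold in parent cells and gave no call in knockout cells. It lies on chromosome 2 at 70124819 to 70170076 (hg19), and 95.4% of its 6321 exon bases overlap no other gene. Exon reads were 49.3, 51.9 and 50.4 CPM with camptothecin against 17.6, 17.01 and 18.01 CPM with DMSO in parent cells. Knockout cells had 21.3, 21.3 and 22.3 CPM with camptothecin against 23.0, 23.5 and 22.7 CPM with DMSO. The camptothecin libraries of parent cells lay above all others, and those of knockout cells lay below their own DMSO libraries. The log2 change was 1.53 ± 0.061 (adjusted p = 1.48e-11) in parent cells, where the error is the SE. In knockout cells it was -0.09 (adjusted p = 0.355), with an interval of -0.21 to 0.03. The responses differed, knockout minus parent, by -1.62 ± 0.086 (adjusted p = 1.83e-09). Without drug, MXD1 was 1.32-fold higher in knockout than in parent cells, with a log2 change of 0.40 (adjusted p = 0.000208). Under camptothecin it was lower in knockout cells, with a log2 change of -1.22 (adjusted p = 1.61e-10). These 4 calls held in all 12 fits that each left out 1 library. By exon and intron reads summed the parent change was smaller (0.91, adjusted p = 1.85e-09), and so was the difference of responses (-0.95, adjusted p = 3.28e-07). In exon stretches free of other genes the parent rise was 3.5-fold.

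MXD1 intron reads, which come largely from RNA not yet spliced, moved less. They were 99.1, 94.0 and 92.2 CPM with camptothecin against 83.0, 75.0 and 73.2 CPM with DMSO in parent cells. In knockout cells they were 80.4, 76.9 and 81.9 CPM with camptothecin against 80.2, 86.5 and 81.8 CPM with DMSO. The parent groups did not overlap and the knockout groups did. The log2 change of intron reads was 0.30 ± 0.071 (adjusted p = 0.00279) in parent cells, and the intron responses differed by -0.36 (adjusted p = 0.0372). That second call was lost without any 1 of the libraries other than parent DMSO replicate 1 and knockout camptothecin replicate 3, with values of -0.38 to -0.32 and adjusted p of 0.0572 to 0.125, and without parent DMSO replicate 1 it was -0.42 (adjusted p = 0.00219). It was lost as well when intron reads were scaled by exon library sizes and factors (-0.29, adjusted p = 0.2). Some of these intron reads lie where other genes, such as SNRNP27, overlap MXD1. In parent DMSO libraries 1883, 1126 and 1003 of 3647, 1671 and 1481 intron reads were free of other genes. In intron stretches free of other genes the parent change was 0.51 (adjusted p = 1.82e-05) and the difference -0.56 (adjusted p = 0.00218). Parent libraries held 1.2, 1.32 and 1.28 MXD1 exon reads per intron read with camptothecin against 0.566, 0.533 and 0.564 with DMSO. Knockout libraries held 0.616, 0.653 and 0.579 with camptothecin against 0.697, 0.644 and 0.686 with DMSO. The parent camptothecin libraries again stood above the rest. They also did so in reads free of other genes, with 1.56, 1.74 and 1.64 against 0.822, 0.597 and 0.656 in parent DMSO libraries. By all reads the exon change exceeded the intron change by 1.23 ± 0.084 (adjusted p = 2.15e-07) in parent cells and by -0.04 (adjusted p = 0.876) in knockout cells, and these excesses differed by -1.26 (adjusted p = 0.000305).

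MYC, the activator, showed a small rise in parent cells whose size and call depended on which libraries were kept. The gene lies on chromosome 8 at 128747679 to 128753673 (hg19), and no other gene overlaps it. Exon reads were 142.8, 147.2 and 143.5 CPM with camptothecin against 143.0, 107.9 and 111.2 CPM with DMSO in parent cells. The knockout libraries held 121.3, 118.7 and 114.3 CPM with camptothecin against 118.1, 116.9 and 117.4 CPM with DMSO. The parent groups overlapped through DMSO replicate 1. The rise was 1.2-fold, a log2 change of 0.26 ± 0.083 (adjusted p = 0.0227), and without parent DMSO replicate 1 it was 0.40 (adjusted p = 5.27e-09). The call was lost without parent DMSO replicate 2 (0.18, adjusted p = 0.126) or 3 (0.20, adjusted p = 0.116), and without parent camptothecin replicate 1 (0.27, adjusted p = 0.0573), 2 (0.25, adjusted p = 0.0757) or 3 (0.26, adjusted p = 0.0592). It was also lost in a fit of the parent groups alone (0.27, adjusted p = 0.0776) and by exon and intron reads summed (0.22, adjusted p = 0.0792), and library size alone gave a larger value (0.39, adjusted p = 9.86e-05). In knockout cells the change was 0.01 (adjusted p = 0.965), with an interval of -0.16 to 0.17. The difference between the responses came to -0.25 (adjusted p = 0.253), and without parent DMSO replicate 1 to -0.39 (adjusted p = 9.18e-06). Under camptothecin all knockout libraries lay below all parent libraries, with a log2 change of -0.29 (adjusted p = 0.0142). This call was lost without parent camptothecin replicate 2 (-0.28, adjusted p = 0.0535) or knockout camptothecin replicate 3 (-0.27, adjusted p = 0.0547). Without drug the difference between the genotypes was -0.04 (adjusted p = 0.799), with an interval of -0.20 to 0.12.

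MYC intron reads gave no call in parent cells. They were 27.4, 24.9 and 23.5 CPM with camptothecin against 33.1, 26.0 and 28.4 CPM with DMSO in parent cells, a log2 change of -0.21 (adjusted p = 0.182). Parent libraries held 12.6, 14.1 and 14.3 MYC exon reads per intron read with camptothecin against 11.6, 9.73 and 8.97 with DMSO, so the groups did not overlap. Knockout libraries held 10.1, 8.72 and 9.75 with camptothecin against 9.41, 10.9 and 10.5 with DMSO, where the groups overlapped. The exon change exceeded the intron change by 0.47 ± 0.1 (adjusted p = 0.00427) in parent cells, and by 0.51 (adjusted p = 0.00118) without parent DMSO replicate 1. In knockout cells the excess was -0.02 (adjusted p = 0.955). These excesses had a difference of -0.49 (adjusted p = 0.152), and of -0.52 (adjusted p = 0.035) without that library.

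**Figure D3:**
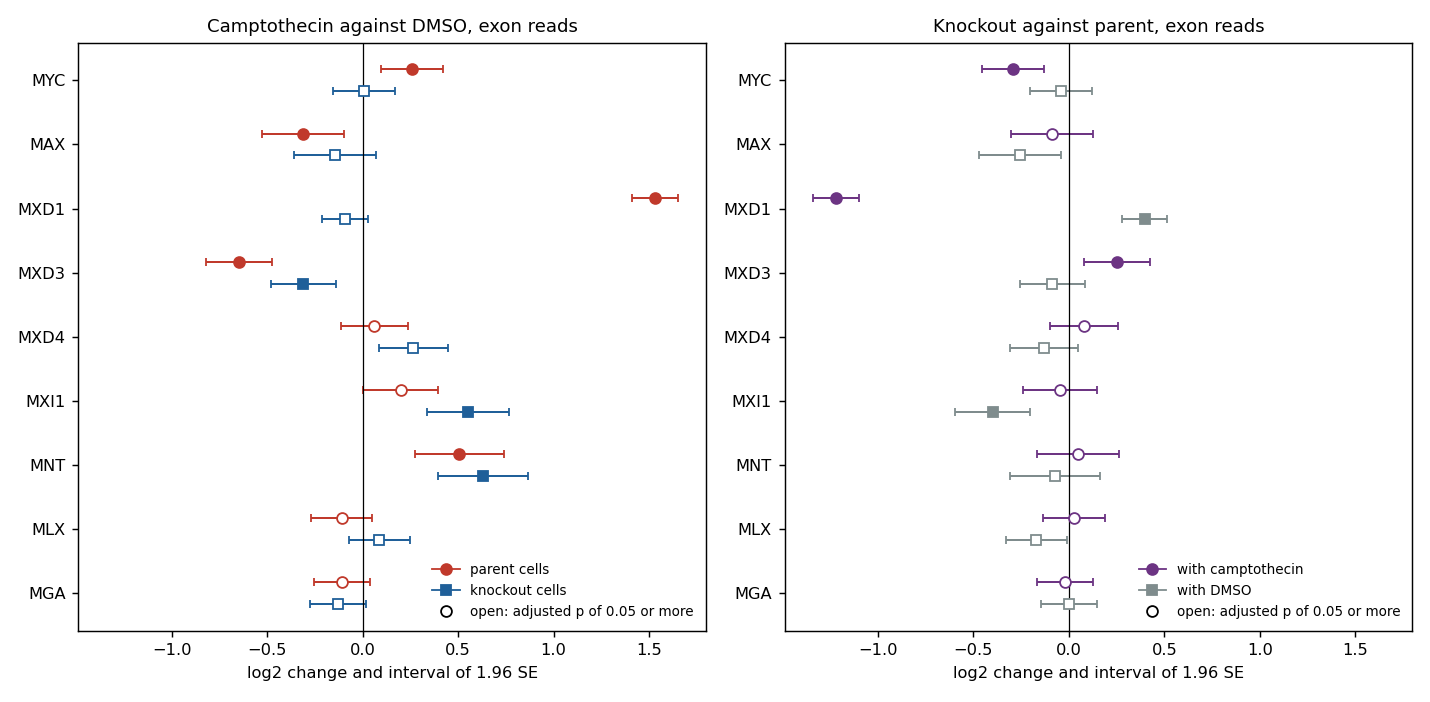
Log2 change of exon reads of each member with its interval, for camptothecin against DMSO in each genotype and for knockout against parent cells at each setting. Filled symbols passed the test. MXD1 lies at 1.53 in parent and -0.09 in knockout cells, and MNT lies right of 0 in both.

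MAX, the shared partner, fell in parent cells by a value that rests on parent DMSO replicate 1. It lies on chromosome 14 at 65472891 to 65569412 (hg19), with 88.9% of its exon bases free of other genes. Exon reads were 56.6, 55.7 and 57.1 CPM with camptothecin against 88.3, 62.2 and 59.7 CPM with DMSO in parent cells. Knockout cells had 55.18, 53.9 and 50.3 CPM with camptothecin against 57.7, 56.6 and 62.1 CPM with DMSO. The camptothecin libraries lay below the DMSO libraries in both genotypes. The parent log2 change of -0.31 (adjusted p = 0.0408) became -0.11 (adjusted p = 0.117) without parent DMSO replicate 1. The call was also lost without any 1 of the 3 parent camptothecin libraries, the 3 knockout camptothecin libraries or knockout DMSO replicates 1 and 2, with values of -0.32 to -0.30 and adjusted p of 0.0529 to 0.108. It was lost as well with library size alone (-0.18, adjusted p = 0.121) and in a fit of the parent groups alone (-0.30, adjusted p = 0.117). In knockout cells the change was -0.15 (adjusted p = 0.445), and it passed without parent DMSO replicate 1, -0.14 (adjusted p = 0.026), and in a fit of the knockout groups alone (-0.14, adjusted p = 0.0499). Between untreated genotypes the value was -0.26 (adjusted p = 0.143), and it passed without parent DMSO replicate 3 (-0.37, adjusted p = 0.0277) and with no filter on low counts (-0.27, adjusted p = 0.0118).

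MXD3, the MXD member known for expression in dividing cells, fell in both genotypes. It lies on chromosome 5 at 176728461 to 176739757 (hg19), where PRELID1 and RAB24 overlap it and 53.7% of its 5154 exon bases are free of them. Exon reads were 43.6, 44.0 and 37.9 CPM with camptothecin against 74.7, 60.2 and 61.8 CPM with DMSO in parent cells. In knockout cells they were 52.3, 52.6 and 44.7 CPM with camptothecin against 63.5, 60.8 and 61.1 CPM with DMSO. The camptothecin and DMSO libraries did not overlap in either genotype. The log2 change was -0.65 ± 0.088 (adjusted p = 2.12e-05) in parent cells and -0.31 ± 0.088 (adjusted p = 0.0229) in knockout cells, and the difference between them was 0.34 (adjusted p = 0.127). The knockout call was lost without knockout DMSO replicate 1 (-0.29, adjusted p = 0.0921), 2 (-0.32, adjusted p = 0.0701) or 3 (-0.32, adjusted p = 0.0638) or knockout camptothecin replicate 3 (-0.24, adjusted p = 0.107). Scaling by library size alone also ended it (-0.16, adjusted p = 0.121). That scaling brought the difference between the responses past the test (0.36, adjusted p = 0.0347), as did fitting all genes without a filter on low counts (0.35, adjusted p = 0.0489).

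Where no other gene overlaps MXD3, the falls were larger. The exon reads there, scaled to the total of such reads, were 15.1, 13.3 and 12.3 CPM with camptothecin against 29.6, 31.2 and 32.7 CPM with DMSO in parent cells. The knockout libraries held 21.2, 23.6 and 19.8 CPM with camptothecin against 38.5, 36.3 and 33.5 CPM with DMSO. Parent DMSO replicate 1 was the lowest of its group here, and the highest by all exon reads. MXD3 was 2.29-fold lower with camptothecin in parent cells, a log2 change of -1.20 (adjusted p = 4.82e-08), and 1.67-fold lower in knockout cells, -0.74 (adjusted p = 1.87e-05). The responses differed by 0.46 (adjusted p = 0.036), and without parent DMSO replicate 1 by 0.49 (adjusted p = 0.00289). Under camptothecin MXD3 was higher in knockout than in parent cells, by 0.67 (adjusted p = 3.86e-05) in these reads and by 0.25 (adjusted p = 0.0419) in all exon reads. The call in all exon reads was lost by exon and intron reads summed (0.21, adjusted p = 0.0943) and without any 1 parent camptothecin library, knockout DMSO library, or knockout camptothecin replicate 1 or 2, with values of 0.19 to 0.29 and adjusted p of 0.0588 to 0.201. PRELID1, a mitochondrial lipid transfer protein, averaged 30.6 ± 2.09 CPM with camptothecin and 41.19 ± 7.64 CPM with DMSO in parent cells (mean ± SD, n = 3 each). By all exon reads its log2 change was -0.44 (adjusted p = 0.0071) in parent cells and -0.04 (adjusted p = 0.845) in knockout cells. PRELID1 lies wholly within MXD3, and no library held PRELID1 exon reads free of other genes. These values therefore cannot be told apart from changes in MXD3 reads. Parent DMSO replicate 1 was the highest of its group for PRELID1, and a value without that library is not given here.

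Intron reads of MXD3 free of other genes also fell in both genotypes. They were 6.65, 5.89 and 6.76 CPM with camptothecin against 15.0, 17.9 and 18.8 CPM with DMSO in parent cells. Knockout cells had 9.89, 11.3 and 7.13 CPM with camptothecin against 17.1, 18.9 and 21.2 CPM with DMSO. The groups did not overlap in either genotype. The log2 change was -1.41 (adjusted p = 6.12e-07) in parent and -1.01 (adjusted p = 0.000116) in knockout cells. In all reads the MXD3 exon change lay below its intron change, with an excess of -0.31 (adjusted p = 0.0191) in parent cells. Without parent DMSO replicate 1 that excess was -0.28 (adjusted p = 0.0205). In reads free of other genes the excess was 0.21 (adjusted p = 0.432), of the opposite sign.

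**Figure D4:**
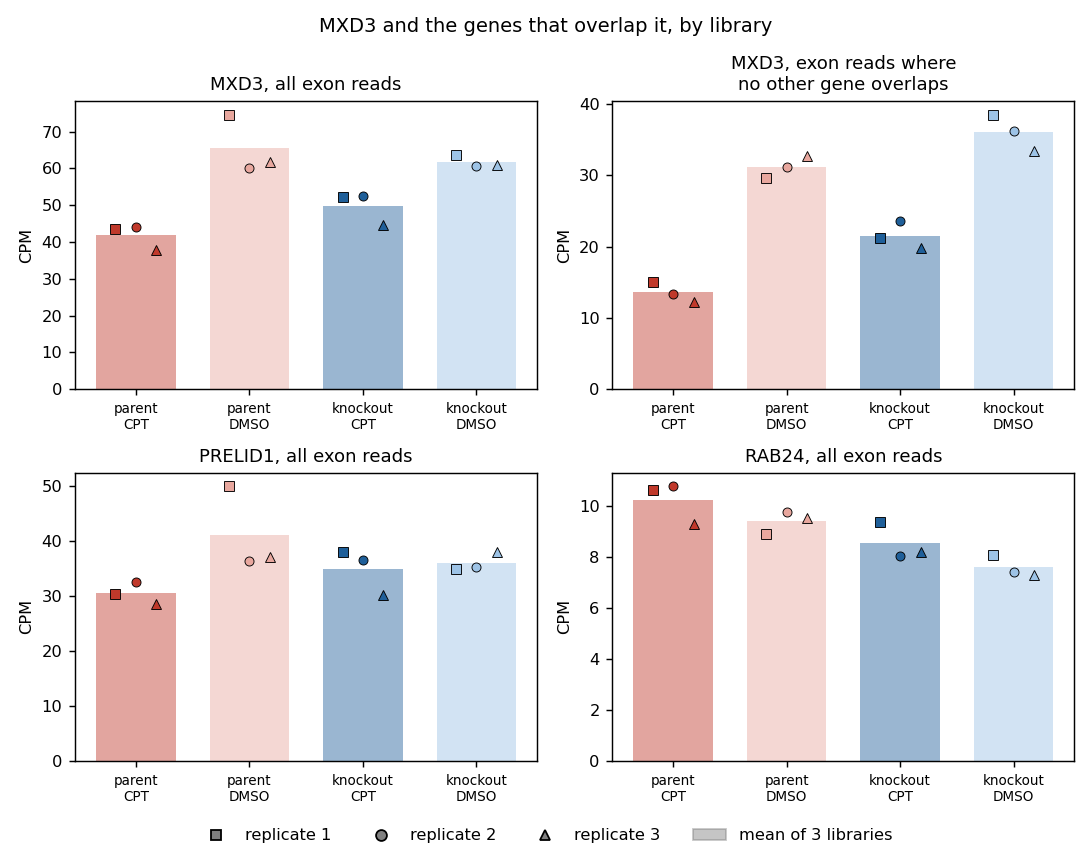
MXD3 exon reads by library, all of them and those free of other genes, with exon reads of the overlapping genes PRELID1 and RAB24 (CPM, linear axes from 0; symbols are replicates and bars means). MXD3 reads free of other genes stand at 12.3 to 15.1 CPM in parent camptothecin and 29.6 to 32.7 CPM in parent DMSO libraries.

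MNT, a widely expressed repressor that competes with MYC for MAX, rose in both genotypes. It lies on chromosome 17 at 2287353 to 2304411 (hg19), with 66.2% of its exon bases free of the overlapping gene RP1-59D14.1. Exon reads were 9.86, 9.82 and 11.2 CPM with camptothecin against 7.32, 7.03 and 7.37 CPM with DMSO in parent cells. In knockout cells they were 10.5, 9.33 and 12.1 CPM with camptothecin against 6.32, 7.90 and 6.42 CPM with DMSO. The camptothecin libraries lay above the DMSO libraries in both genotypes. The rise was 1.42-fold in parent cells, a log2 change of 0.51 ± 0.12 (adjusted p = 0.00246), and 1.55-fold in knockout cells, 0.63 ± 0.12 (adjusted p = 0.00118). Both calls held in all 12 fits that each left out 1 library. Between the responses there was a difference of 0.12 (adjusted p = 0.75), with an interval of -0.20 to 0.45 that leaves room for a difference in either direction. MNT intron reads gave 0.29 (adjusted p = 0.0615) in parent cells and rose by 0.39 (adjusted p = 0.0209) in knockout cells. The intron call was lost without knockout DMSO replicate 1 (0.34, adjusted p = 0.104) or 3 (0.36, adjusted p = 0.0875) or knockout camptothecin replicate 1 (0.34, adjusted p = 0.0896).

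MXI1, an MXD repressor, rose in knockout cells. It lies on chromosome 10 at 111967362 to 112047122 (hg19), with 94.9% of its exon bases free of other genes. Exon reads were 12.4, 13.5 and 12.6 CPM with camptothecin against 13.1, 10.8 and 9.50 CPM with DMSO in parent cells. The knockout libraries held 12.8, 11.98 and 12.5 CPM with camptothecin against 8.52, 8.49 and 8.42 CPM with DMSO. The knockout groups did not overlap, and the parent groups overlapped through DMSO replicate 1. The knockout rise was 1.47-fold, a log2 change of 0.55 ± 0.11 (adjusted p = 0.0014) that held in all 12 fits that each left out 1 library. In parent cells the change was 0.20 (adjusted p = 0.152), and without parent DMSO replicate 1 it was 0.34 (adjusted p = 0.0032). Library-size scaling also brought it past the test (0.33, adjusted p = 0.00912). The difference between the responses was 0.35 (adjusted p = 0.19), and without that library 0.22 (adjusted p = 0.277). Without drug MXI1 was lower in knockout than in parent cells, with a log2 change of -0.40 (adjusted p = 0.015), and of -0.26 (adjusted p = 0.048) without parent DMSO replicate 1. This call was lost in a fit of the untreated groups alone (-0.39, adjusted p = 0.0934) and without any 1 knockout DMSO library, with values of -0.41 to -0.40 and adjusted p of 0.0514 to 0.055. MXI1 intron reads rose in knockout cells by 0.55 (adjusted p = 0.0129), a call lost without knockout DMSO replicate 2 (0.50, adjusted p = 0.0649) or 3 (0.54, adjusted p = 0.051) or knockout camptothecin replicate 1 (0.51, adjusted p = 0.0514) or 3 (0.43, adjusted p = 0.0783).

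MXD4, MLX and MGA gave no call by all exon reads in any of the 5 comparisons. MXD4, an MXD repressor on chromosome 4 at 2249158 to 2264020 (hg19), had 18.5 to 22.6 CPM with camptothecin against 18.9 to 20.1 CPM with DMSO in parent cells, and 20.1 to 22.3 CPM with camptothecin against 16.2 to 20.1 CPM with DMSO in knockout cells. Its knockout change was 0.27 (adjusted p = 0.0573), with an interval of 0.09 to 0.45. It passed without parent DMSO replicate 1, 0.27 (adjusted p = 0.00929), without knockout DMSO replicate 2 (0.36, adjusted p = 0.0271), by reads free of other genes, 0.28 (adjusted p = 0.0354), under library-size scaling (0.42, adjusted p = 0.0037), in a fit of the knockout groups alone (0.27, adjusted p = 0.0144) and by DESeq2 (0.27, adjusted p = 0.0398). MGA, the large scaffold with a second DNA-binding domain, lies on chromosome 15 at 41913421 to 42062140 (hg19) and had 204.5 to 218.3 CPM with camptothecin against 209.4 to 258.3 CPM with DMSO in parent cells, and 198.3 to 218.7 CPM with camptothecin against 225.1 to 230.5 CPM with DMSO in knockout cells. Its knockout change was -0.13 (adjusted p = 0.275), and it passed without parent DMSO replicate 1, -0.13 (adjusted p = 0.0183), and in a fit of the knockout groups alone (-0.13, adjusted p = 0.047).

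MLX, the MAX-like partner, lies on chromosome 17 at 40719085 to 40725256 (hg19) and shares its end with PSMC3IP, a gene that rose in parent cells (0.58, adjusted p = 0.000658). In the 78.3% of its exon bases that are free of PSMC3IP, MLX had 57.9, 54.7 and 56.0 CPM with camptothecin against 80.8, 66.2 and 65.5 CPM with DMSO in parent cells. In knockout cells it had 65.6, 63.9 and 58.2 CPM with camptothecin against 63.5, 62.8 and 61.4 CPM with DMSO. The parent groups did not overlap there. By these reads MLX fell in parent cells, with a log2 change of -0.34 (adjusted p = 0.00221), and of -0.23 (adjusted p = 0.000659) without parent DMSO replicate 1, whereas all exon reads gave -0.11 (adjusted p = 0.342). All exon reads gave 0.09 (adjusted p = 0.545) in knockout cells, which passed with library size alone (0.24, adjusted p = 0.00925). The parent exon change of MLX lay below its intron change in reads free of PSMC3IP, with an excess of -0.64 (adjusted p = 0.0146). Intron reads were few there, 148, 84 and 61 in parent DMSO libraries. These libraries held 51.3, 32.1 and 38.8 exon reads per intron read, with replicate 1 the highest. In all reads without parent DMSO replicate 1 the excess was -0.25 (adjusted p = 0.414). In reads free of PSMC3IP the difference between the responses was 0.34 (adjusted p = 0.0653), and without that library it was 0.23 (adjusted p = 0.0212).

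Counted by exon reads free of other genes, 6 of the 9 members passed in parent cells and 4 in knockout cells, against 40.7% and 22.2% of 15928 genes. The responses differed for MXD1 and MXD3, against 9.29% of these genes. Between untreated genotypes 2 members passed by those reads and between treated genotypes 3, against 20.9% and 34.3%. By all exon reads MXD1 was higher and MXI1 lower in untreated knockout than in untreated parent cells, against 15.7% of all genes, 8.26% higher and 7.44% lower. Under camptothecin MXD3 was higher and MXD1 and MYC were lower in knockout cells, against 28.0% of all genes, 13.4% higher and 14.6% lower.

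By intron reads MXD1 rose and MXD3 fell in parent cells, and MXI1 and MNT rose in knockout cells, against 26.3% and 16.9% of 19908 genes. The intron responses differed for MXD1, against 5.82%, and under camptothecin MXD1 was the only member lower in knockout cells, with none higher, against 28.6%. That MXD1 call under camptothecin was lost without parent camptothecin replicate 1 (-0.23, adjusted p = 0.0566) and with exon library sizes and factors (-0.18, adjusted p = 0.123). The fall of MXD3 intron reads in parent cells was lost without parent camptothecin replicate 3 (-0.31, adjusted p = 0.0552). Between untreated genotypes no member passed in intron reads by edgeR, where 14.6% of genes did and 5505 genes had an unadjusted p under 0.05. The exon change differed from the intron change for MYC, MXD1 and MXD3 in parent cells and for no member in knockout cells, against 18.4% and 7.08% of 17351 genes. That excess differed between the responses for MXD1, against 0.501% of genes, and for no member between untreated genotypes, against 0.732%. In reads free of other genes the exon change differed from the intron change in parent cells for MYC, MXD1 and MLX and gave no call for MXD3. Of all 13169 genes tested in that way, 1253 were called with a larger and 1664 with a smaller exon than intron change.

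**Figure D5:**
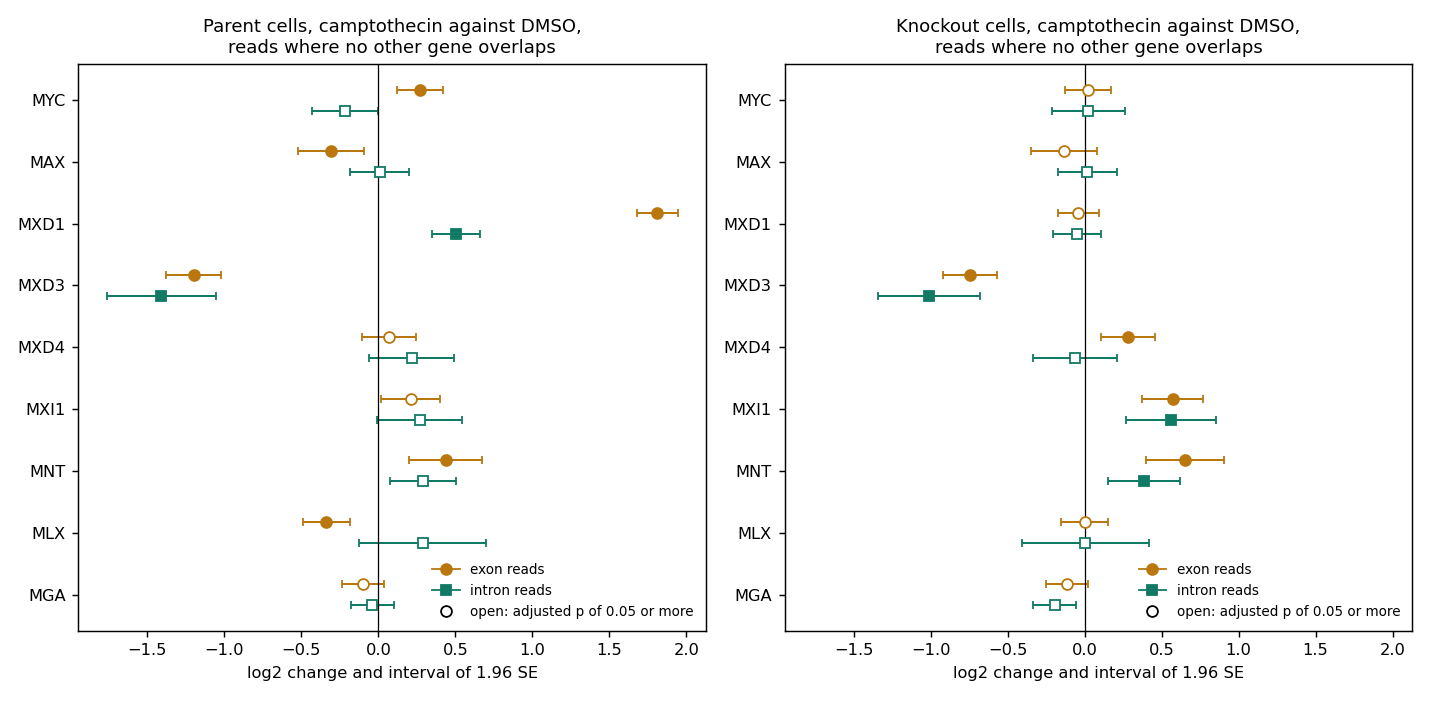
Log2 change with camptothecin of exon and of intron reads, both counted where no other gene overlaps, with intervals, in parent and in knockout cells. Filled symbols passed the test. The MXD1 exon change in parent cells is 1.81 and its intron change is smaller, while the MXD3 exon changes of -1.20 in parent and -0.74 in knockout cells stand beside intron changes of -1.41 and -1.01.

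MYCN, the MYC paralogue of neural tissue, was also read. It had 11.8, 11.8 and 11.8 CPM with camptothecin against 15.8, 14.6 and 14.9 CPM with DMSO in parent cells. In knockout cells it had 14.5, 15.1 and 14.4 CPM with camptothecin against 14.4, 15.4 and 13.4 CPM with DMSO. The parent groups did not overlap, and MYCN fell there by a log2 change of -0.36 (adjusted p = 0.00171), or of -0.23 with library size alone, with 0.03 (adjusted p = 0.873) in knockout cells. MYCL, a paralogue at lower levels, had 0.993, 1.65 and 1.43 CPM with camptothecin against 0.425, 0.344 and 0.431 CPM with DMSO in parent cells. It rose in parent cells by 1.75 (adjusted p = 8.01e-05) and in knockout cells by 1.47 (adjusted p = 0.00167). MLXIP, the MondoA partner of MLX, gave -0.32 (adjusted p = 0.129) in parent and -0.20 (adjusted p = 0.438) in knockout cells. It had 39.6, 38.7 and 41.9 CPM with camptothecin against 38.3, 56.9 and 55.5 CPM with DMSO in parent cells, where DMSO replicate 1 was the lowest of its group. The parent value passed without that library (-0.49, adjusted p = 0.028), without knockout camptothecin replicate 3 (-0.32, adjusted p = 0.0486) and with no filter on low counts (-0.33, adjusted p = 0.000428).

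Of 7 tested targets of MondoA and MLX, 5 rose and 1 fell with camptothecin in parent cells, and 0 rose and 2 fell in knockout cells, against 16.8% higher and 17.1% lower of all genes in parent cells and 7.30% and 9.28% in knockout cells. Without parent DMSO replicate 1 the counts were 4 and 1 in parent and 1 and 4 in knockout cells. That fit called 6640 of all genes in the knockout response, where the fit of all libraries called 3902. Their median log2 change was 0.78 in parent and -0.15 in knockout cells, beside 0.01 and 0.02 over all genes. TXNIP, which restrains glucose uptake and is the best known MondoA target, had 205.6, 202.2 and 196.3 CPM with camptothecin against 45.5, 44.5 and 42.9 CPM with DMSO in parent cells. In knockout cells TXNIP had 46.4, 47.9 and 40.15 CPM with camptothecin against 53.4, 51.17 and 49.7 CPM with DMSO, so the parent camptothecin libraries lay above the other 9. The TXNIP responses differed by -2.38 (adjusted p = 5.02e-11), and those of its relative ARRDC3 by -1.16 (adjusted p = 1.59e-05). HK2, a hexokinase, fell in parent (-0.40, adjusted p = 0.000132) and knockout cells (-0.48, adjusted p = 7.2e-05). The responses of 3 of the 7 genes differed, all lower in knockout cells, against 4.47% of all genes. Without parent DMSO replicate 1 those of 5 differed, in a fit that called 3503 of all genes, against 1487 with that library. Under camptothecin 5 of them were lower in knockout than in parent cells and 0 higher, against 14.6% lower and 13.4% higher of all genes.

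Among 40 ribosome biogenesis genes known as MYC targets, 8 rose and 6 fell in parent cells, and 2 rose and 3 fell in knockout cells, against 16.8% higher and 17.1% lower of all genes in parent cells and 7.30% and 9.28% in knockout cells. The parent share that rose is thus near that of all genes. Higher and lower counts were 17 and 7 in parent and 8 and 8 in knockout cells without parent DMSO replicate 1, and 13 and 3 in parent and 14 and 1 in knockout cells with library size alone. In the knockout response all called genes were 6640 without that library and 5967 with library size alone, against 3902 in the main fit. With library size alone, 67.2% of parent and 78.6% of knockout calls over all genes were higher. Leaving out any 1 library gave 7 to 17 higher and 4 to 7 lower in parent cells and 0 to 8 higher and 0 to 8 lower in knockout cells. Under camptothecin 0 were higher and 14 lower in knockout than in parent cells, against 13.4% higher and 14.6% lower of all genes. The median log2 change was -0.18 beside 0.00 over all genes. Without parent DMSO replicate 1 that count was 4 higher and 26 lower, and with library size alone 4 higher and 7 lower with a median of -0.06. All called genes of this comparison ran from 5004 to 9313 over the fits that left out 1 library. GRWD1, a ribosome assembly factor, had 101.2, 96.8 and 93.8 CPM with camptothecin against 64.3, 70.8 and 68.8 CPM with DMSO in parent cells and rose there by 0.52 (adjusted p = 4.66e-06). RRP12, another assembly factor, rose in parent cells by 0.37 (adjusted p = 0.000109) and was lower in knockout than in parent cells under camptothecin, with a log2 change of -0.47 (adjusted p = 1.23e-05). Of all genes, 4.47% had a lower and 1.84% a higher response in knockout cells. The responses of 2 of the 40 genes differed, a share near that of all genes. These were GRWD1 (-0.38, adjusted p = 0.0125) and RRP12 (-0.37, adjusted p = 0.0122), both lower in knockout cells. Both calls were lost without parent camptothecin replicate 1 or knockout DMSO replicate 3, and that of RRP12 without knockout DMSO replicate 1, with -0.41 to -0.34 and adjusted p up to 0.0557 for GRWD1 and -0.41 to -0.35 and adjusted p up to 0.054 for RRP12 over the 12 fits. Without parent DMSO replicate 1 the responses of 2 were higher and of 12 lower, where 3503 of all genes were called.

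Of 42 metabolic and growth targets of MYC, 8 rose and 16 fell in parent cells, and 6 rose and 8 fell in knockout cells, against 16.8% higher and 17.1% lower of all genes in parent cells and 7.30% and 9.28% in knockout cells. The counts were 14 and 16 in parent and 13 and 15 in knockout cells without parent DMSO replicate 1, where 6640 of all genes were called in the knockout response. With library size alone they were 15 and 14 in parent and 20 and 3 in knockout cells, so the balance turns with the scaling. That scaling called 5967 of all genes in the knockout response, 78.6% of them higher. Each library left out in turn gave 7 to 14 higher and 14 to 17 lower in parent cells and 3 to 13 higher and 3 to 15 lower in knockout cells. SLC3A2, the heavy chain of several amino acid transporters, had 409.9, 406.0 and 403.9 CPM with camptothecin against 182.9, 232.1 and 233.8 CPM with DMSO in parent cells. In knockout cells it had 197.7, 194.0 and 170.9 CPM with camptothecin against 193.1, 189.8 and 200.3 CPM with DMSO. Parent camptothecin libraries were the highest, and the responses differed by -0.96 (adjusted p = 6.16e-05). E2F2, a cell cycle transcription factor, rose in parent (0.94, adjusted p = 1.6e-09) and knockout cells (0.37, adjusted p = 0.00014). LDHA, a lactate dehydrogenase subunit, fell in parent cells with a log2 change of -0.71 (adjusted p = 0.000612), and without parent DMSO replicate 1 the value was smaller (-0.46, adjusted p = 9.93e-11). TFAM, a mitochondrial DNA-binding factor, was lower in knockout than in parent cells with camptothecin (-0.86, adjusted p = 1.59e-08) and with DMSO (-0.83, adjusted p = 4.83e-08).

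Of 18 genes known to be repressed by MYC, 5 rose and 4 fell in parent cells, and 3 rose and 5 fell in knockout cells, against 16.8% higher and 17.1% lower of all genes in parent cells and 7.30% and 9.28% in knockout cells. With library size alone the counts were 5 and 3 in parent and 3 and 2 in knockout cells, and the fits that left out 1 library gave 5 higher and 4 to 6 lower in parent cells and 1 to 3 higher and 4 to 5 lower in knockout cells. Library size alone called 5967 of all genes in the knockout response, 78.6% of them higher. CDKN1A, the p21 cell cycle inhibitor and also a target of p53, had 21.7, 22.9 and 22.1 CPM with camptothecin against 1.28, 2.14 and 2.48 CPM with DMSO in parent cells. In knockout cells it had 15.95, 17.6 and 13.3 CPM with camptothecin against 6.30, 7.92 and 7.04 CPM with DMSO. It rose in both genotypes, by 3.56 (adjusted p = 1.81e-09) in parent and 1.14 (adjusted p = 0.000196) in knockout cells, and the responses differed by -2.42 (adjusted p = 1.56e-05). Without drug CDKN1A was higher in knockout than in parent cells by 1.91 (adjusted p = 3.45e-06). GADD45A, a growth arrest gene, rose in parent cells by 0.96 (adjusted p = 9.72e-05), whereas CDKN2C, a kinase inhibitor, fell there with a log2 change of -0.48 (adjusted p = 0.000308). CDKN1B, the p27 inhibitor, fell in knockout cells by a log2 change of -0.57 (adjusted p = 7.76e-05). Between untreated genotypes 6 of the 18 were higher and 1 lower in knockout cells, against 8.26% higher and 7.44% lower of all genes. Without parent DMSO replicate 1 the counts were 8 and 0, and leaving out any 1 library gave 3 to 8 higher and 0 to 1 lower. All called genes of this comparison ran from 2385 to 4327 over those fits, against 3697 in the main fit.

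Of 22 genes that control MYC RNA or protein, 5 rose and 9 fell in parent cells, and 1 rose and 6 fell in knockout cells, against 16.8% higher and 17.1% lower of all genes in parent cells and 7.30% and 9.28% in knockout cells. Without parent DMSO replicate 1 the knockout counts were 3 and 10, and with library size alone they turned to 7 and 2. Over all genes these fits called 6640 and 5967 in that order, and 78.6% of the calls by library size alone were higher. Over the fits that left out 1 library there were 4 to 5 higher and 9 to 11 lower in parent cells and 1 to 3 higher and 3 to 10 lower in knockout cells. PIM2, a kinase known to stabilise MYC, had 14.6, 14.5 and 13.5 CPM with camptothecin against 7.29, 7.11 and 6.55 CPM with DMSO in parent cells, and 8.39, 8.85 and 6.64 CPM against 7.72, 6.84 and 6.77 CPM in knockout cells. It rose in parent cells by 1.02 (adjusted p = 1.56e-06), and the responses differed by -0.86 (adjusted p = 0.00259). USP36, a nucleolar deubiquitinase that acts on MYC, rose in parent cells by 0.81 (adjusted p = 1.28e-06), with responses that differed by -0.56 (adjusted p = 0.00887). SKP2, a ubiquitin ligase subunit that acts on MYC, moved the other way, by -0.41 (adjusted p = 0.000239) in parent cells with a difference of 0.50 (adjusted p = 0.00595). AURKA, a mitotic kinase that shields MYC proteins from degradation, fell in parent (-1.09, adjusted p = 1.05e-07) and knockout cells (-1.48, adjusted p = 6.87e-09).

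Of 21 cofactors of MYC and the MXD proteins, 2 rose and 9 fell in parent cells, and 2 rose and 6 fell in knockout cells, against 16.8% higher and 17.1% lower of all genes in parent cells and 7.30% and 9.28% in knockout cells. The counts became 4 and 9 in parent and 2 and 8 in knockout cells without parent DMSO replicate 1 and 4 and 7 in parent and 4 and 4 in knockout cells with library size alone, and ran over 2 to 4 higher and 8 to 10 lower in parent cells and 1 to 2 higher and 4 to 8 lower in knockout cells as each library was left out. SIN3B, a SIN3 scaffold, had 34.6, 32.7 and 34.6 CPM with camptothecin against 26.6, 27.1 and 26.6 CPM with DMSO in parent cells and rose by 0.34 (adjusted p = 0.000531). ZBTB17, the MYC partner MIZ1, rose by 0.41 (adjusted p = 0.00012) and its responses differed by -0.47 (adjusted p = 0.00568). HDAC1, a histone deacetylase, had 143.5, 142.5 and 137.6 CPM with camptothecin against 220.2, 195.2 and 191.7 CPM with DMSO in parent cells and fell by a log2 change of -0.52 (adjusted p = 6.34e-06). NCOR1, a corepressor, fell in parent (-0.71, adjusted p = 6.06e-06) and knockout cells (-0.43, adjusted p = 0.00183). The responses of 2 of the 21 differed, ZBTB17 and SIN3B (-0.38, adjusted p = 0.0201), both lower in knockout cells. Of all genes, 4.47% had a lower and 1.84% a higher response there. The SIN3B call was lost without parent camptothecin replicate 1 or 3, knockout DMSO replicate 1 or 3 or knockout camptothecin replicate 2, with -0.41 to -0.34 and adjusted p up to 0.0758 over the 12 fits. Without parent DMSO replicate 1 the responses of 5 were higher and of 3 lower, where 3503 of all genes were called. Of 12 partners of MGA in its Polycomb complex, 5 rose and 4 fell in parent cells, and 4 rose and 1 fell in knockout cells, beside the same shares of all genes. These counts were 6 and 4 in parent and 6 and 2 in knockout cells without parent DMSO replicate 1 and 7 and 3 in parent and 6 and 0 in knockout cells with library size alone, and 3 to 6 higher and 3 to 4 lower in parent cells and 1 to 6 higher and 0 to 2 lower in knockout cells over the fits that left out 1 library. For cofactors and partners alike, all genes called in the knockout response were 6640 without parent DMSO replicate 1. With library size alone they were 5967, 78.6% of them higher. PCGF6, the subunit that defines that complex, rose in parent cells by 0.64 (adjusted p = 9.56e-05), and so did RING1, its ubiquitin ligase, by 0.50 (adjusted p = 4.51e-05).

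The genes whose log2 CPM was most like that of each member over the 12 libraries were found by Pearson's r among 16157 genes. For MXD1 they were CTC-250I14.6 (r = 0.992) and the immediate early gene IER2 (r = 0.987). IER2 had 179.0, 182.1 and 172.0 CPM with camptothecin against 34.9, 44.2 and 50.1 CPM with DMSO in parent cells. In knockout cells it had 55.4, 58.5 and 50.4 CPM with camptothecin against 62.0, 60.8 and 63.4 CPM with DMSO, so the parent camptothecin libraries stood highest, as with MXD1. For MYC they were DDX27 (r = 0.989) and TRAPPC6B (r = 0.98), for MAX CTD-2278I10.6 (r = 0.984) and BABAM1 (r = 0.982), and for MXD3 RPN2 (r = 0.986) and IFITM1 (r = 0.985). For MNT they were C3orf62 (r = 0.958) and GOLGA2B (r = 0.945), for MXI1 LSM14B (r = 0.951) and ETS2 (r = 0.95), and for MXD4 HYAL1 (r = 0.87) and SLC38A5 (r = 0.855). For MLX they were P4HB (r = 0.972) and C19orf43 (r = 0.965), and for MGA TOPBP1 (r = 0.958) and AKAP9 (r = 0.949). The 12 points fall into 4 groups and hold 1 library of other composition, so these values are descriptions. DDX27, like MYC, was high in parent DMSO replicate 1, with 99.97 CPM against 71.05 and 71.06 CPM in the other libraries of its group.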

How the data were processed

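RNA-seq was done on 12 libraries, paired-end in 1 sequencing run, from total RNA per the labels' protocols. The deposited tables hold read counts per gene in exons and introns, and TPM values made by the authors that were not used. Per the submitters' processing notes the build was hg19, and the tools named are STAR 2.5.4a, Picard 2.9.2, Trimmomatic 0.39 and Trim Galore 0.6.2. No source used here gives the counting tool, its strand setting or the annotation version. Reads of antisense or overlapping genes may thus be mixed, and reads where no other gene overlaps were fitted as well.

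Here, gene counts were fitted over all 4 groups with edgeR 4.0.16 in R 4.3.3 (robust quasi-likelihood test, TMM, filterByExpr, Benjamini-Hochberg), after up to 32 Y copies of genes also listed on X were left out. Exon and intron reads were also fitted together with the library as a block. DESeq2 1.42.0 was an alternative. On simulated counts for 22882 genes, the exon fit recovered 62% of log2 changes of 0.5 and 88% of 1 in the parent response. The fit of exon minus intron change, simulated for 17129 genes, recovered 36% of 0.5 and 90% of 1, so small excesses are often missed. Members and lists were chosen with earlier results of these data known. Genes named from a list are those with the largest changes, up to 2 per list, direction and comparison, with a mean of at least 1 CPM, among calls, and overlapping genes are named beside their member. Intervals of a log2 change are normal intervals from its SE at a level of 0.05.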

Additional observations from a re-analysis of the deposited data

Results flagged for a closer look

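MXD1 responded to camptothecin differently in the genotypes. The knockout minus parent difference of its log2 responses was -1.62 in exon reads (adjusted p = 1.83e-09), -0.356 in intron reads (adjusted p = 0.0372) and -1.26 in the excess of exon over intron change (adjusted p = 0.000305), each by the test of the difference itself. The exon difference held in all 12 fits that each left out 1 library, and the intron difference held in 2. The intron difference was also lost with exon library sizes and factors (-0.294, adjusted p = 0.2).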

How the results depend on the processing

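Leaving out 1 library at a time gave 3 to 5 called members in the parent response, 2 to 6 in the knockout response, 1 to 2 in their difference, 1 to 3 between untreated and 1 to 3 between treated genotypes (exon reads). The called genes were 6445 to 8833, 2519 to 6640, 903 to 3503, 2385 to 4327 and 5004 to 9313 in the same order. In intron reads the called members were 1 to 2, 0 to 3, 0 to 1, 0 and 0 to 2, and the called genes of the knockout response and of the difference 2199 to 4840 and 690 to 2057. Without parent DMSO replicate 1, exon minus intron gave 2475 genes in the knockout response, 661 genes and 2 members in the difference and 223 genes between untreated genotypes. Fitting only the groups compared gave 3 members in the parent response, 6 members and 5932 genes in the knockout response, and 1 member and 2104 genes between untreated genotypes. Library size alone gave 5967 genes in the knockout response. The difference of responses had 2 members with library size alone, 2 with no filter on low counts and 2 with exon reads free of other genes. Those reads without parent DMSO replicate 1, chosen after seeing the data, gave 6 members in the parent response, 6 in the knockout response, 4 between treated genotypes, and 4 members and 3062 genes in the difference. With all libraries those reads called 40.7%, 22.2%, 34.3% and 9.29% of 15928 genes in the same order. Shares of all genes without that library are not given here, so these member counts cannot be set against them. With exon library sizes and factors, intron reads gave 0 members and 603 genes in the difference and 0 members between treated genotypes, where intron reads free of other genes gave 2. NOP58, a ribosome biogenesis gene, had a log2 value of -0.0955 in parent cells (adjusted p = 0.644), of -0.227 to 0.156 over the fits that left out a library, of 0.156 (adjusted p = 0.00826) without parent DMSO replicate 1 and of 0.148 (adjusted p = 0.00706) in reads free of other genes without it. The difference between DDX10 responses was 0.0156, -0.294 to 0.185 over those fits, -0.294 (adjusted p = 0.009) without that library and -0.275 (adjusted p = 0.0119) in reads free of other genes without it. The MXD3 exon excess over intron in parent cells was -0.307 in all reads and 0.211 in reads free of other genes. The causes were not tested.

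Replicate numbers did not pair the libraries, with same-number correlations of -0.0323 to 0.0428. With the replicate block the members called in exon reads were 5, 4, 1, 2 and 3 in the order above, and 7931, 3723, 1348, 3530 and 6453 genes, and among members it moved only the knockout response of MXD4, to 0.268 (adjusted p = 0.0421). Of 1764 member values under an alternative, 867 of exon, 692 of intron and 105 of exon minus intron values kept their call and direction, where 93 that changed sign without a call in either fit are counted as kept.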
